A study of Mus musculus with 6 samples.

Results

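Matrix metalloproteinases (MMPs) and their tissue inhibitors (TIMPs) were followed in RNA-seq of mouse palatal shelves, the paired outgrowths that meet above the tongue to form the roof of the mouth. The 9 genes described, 5 MMPs (Mmp2, Mmp11, Mmp13, Mmp14 and Mmp16) and 4 TIMPs (Timp1 to Timp4), were taken by gene symbol from the 49492 rows of the gene table, and all 9 passed the filter on low counts that left 19284 tested genes. Shelves were dissected at E14.5 from C57BL embryos. The 3 control libraries came from embryos with the genotype PRMT1 fl/fl, in which both copies of the arginine methyltransferase gene carry loxP sites. The deletion group, also 3 libraries, came from Wnt1-Cre; PRMT1 fl/fl embryos, which carry the same alleles and a Cre recombinase driven by Wnt1 regulatory sequence in the neural crest, the source of most palatal mesenchyme. Epithelium, muscle, blood vessels and macrophages of the shelf have other origins, and no library carried Cre without the floxed alleles, so an effect of Cre itself cannot be told apart from that of the deletion. The labels do not state that each library is a separate embryo. Controls of both sexes came from more than 1 embryo, while for the deletion group this is not known, and p-values measure the spread among these 6 samples.

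MMPs are zinc-dependent proteases that cut extracellular matrix. They are made as inactive precursors whose propeptide must be removed, and TIMPs block the active enzymes by binding the catalytic site. MMP14 and MMP16 are anchored in the membrane, and MMP14 together with TIMP2 forms the complex on the cell surface that activates pro-MMP2. MMP and TIMP transcripts are known from the palatal mesenchyme and from the medial edge epithelium, the seam of cells that is removed when the shelves fuse.

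Library totals were 45613056 to 50022829 estimated counts in controls and 44919889 to 49875717 in deletion libraries. Libraries are named as in the table: cont212, cont213 and cont220 for control, mut208, mut211 and mut221 for deletion. Prmt1 itself was lower in every deletion library, at 251 ± 5.95 CPM (counts scaled to library size) in controls and 207.9 ± 8.47 CPM in the deletion group (SD, n = 3 each here and throughout; log2 fold change -0.27, edgeR adjusted p = 0.0113). Xist and 4 Y-linked genes marked controls cont212 and cont213 as male and the other 4 libraries as female, and libraries cont220 and mut221 lay apart from the rest on the second principal component, which held 21.1% of the variance. All 15 markers of palatal mesenchyme on the list were tested, and their summed level was 2668 to 2792 CPM in controls and 2805 to 2910 CPM in deletion libraries.

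Promoter sequences are printed for Mmp13, Mmp14 and Timp1, the 3 genes described whose transcripts fell at an edgeR adjusted p under 0.05. Mmp14 passed that threshold in 8 of 15 alternative fits. Promoter activity was not measured. The sequences are the 250 bases before the transcription start, 5′ to 3′ in the direction of transcription, from RefSeq (GRCm38.p6), with matches to searched motifs in capitals.
Mmp13 (chr9:7272264-7272513, plus strand): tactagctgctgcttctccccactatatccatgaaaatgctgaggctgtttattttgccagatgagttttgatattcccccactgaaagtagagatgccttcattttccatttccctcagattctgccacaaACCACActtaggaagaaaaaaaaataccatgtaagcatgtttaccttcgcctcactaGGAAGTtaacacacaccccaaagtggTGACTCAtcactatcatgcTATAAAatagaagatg
Timp1 (chrX:20869916-20870165, plus strand): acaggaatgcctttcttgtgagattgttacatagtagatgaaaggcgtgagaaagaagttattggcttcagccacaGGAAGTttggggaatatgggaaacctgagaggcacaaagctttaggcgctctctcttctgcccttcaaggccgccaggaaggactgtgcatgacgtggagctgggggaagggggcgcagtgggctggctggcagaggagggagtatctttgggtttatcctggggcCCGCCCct
Mmp14 (chr14:54431348-54431597, plus strand): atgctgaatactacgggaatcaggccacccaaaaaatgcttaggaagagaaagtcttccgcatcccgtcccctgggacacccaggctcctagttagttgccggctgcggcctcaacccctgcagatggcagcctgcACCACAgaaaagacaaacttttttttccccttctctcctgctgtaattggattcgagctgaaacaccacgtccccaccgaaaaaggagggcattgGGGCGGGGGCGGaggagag

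The AP-1 motif was searched as TGANTCA, which reads alike on both strands. The core of the RUNX site was searched as TGTGGT, the ETS site as GGAAGT and the GC box as GGGCGG, each on both strands. The TATA box was searched as TATAAA in the direction of transcription only, and no matches overlapped, although the GC boxes of Mmp14 adjoin. The Mmp13 window held an AP-1 match 35 to 29 bases before the start, a RUNX match on the minus strand 118 to 113 bases before it, an ETS match 61 to 56 bases before it and a TATA box 16 to 11 bases before it. Such matches were found in 6.75% (AP-1), 14% (RUNX), 19.7% (ETS) and 7.6% (TATA box) of the 32817 promoter windows of the same length. The Mmp14 window held 1 RUNX match and 2 GC boxes, and the Timp1 window 1 ETS match and 1 GC box, a motif found in 32.7% of windows. A match describes the letters only, and binding was not measured.

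Of the 9 genes, 7 were in the promoter table, and the Mmp13 window had the lowest share of G and C and the fewest CpGs of the 7. It held 40.4% G and C with 1 CpG, where the median over all windows was 52.4% and 6 CpGs. Timp4, the other low CpG window, held 2 CpGs. Mmp14 held 10 and Timp1 6, while Mmp11, Timp3 and Timp2 held 14, 18 and 21. The 4 promoters with 10 or more CpGs belonged to genes whose log2 fold changes (deletion minus control) lay between -0.25 and 0.19. Mmp14, which fell, is among them, and Timp4 with its 2 CpGs did not pass the test. A link between CpGs and change was not tested.

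Across the 9 genes, 3 fell in the deletion libraries (Mmp13, Mmp14 and Timp1) and 0 rose by edgeR's quasi-likelihood test at adjusted p under 0.05. At an unadjusted p under 0.05, 4 were lower (Timp2 was added) and 1 was higher (Timp3), as with the DESeq2 Wald test. Limma voom called 3 lower and 0 higher. Over all tested genes 7.01% changed at an edgeR adjusted p under 0.05, 3.37% lower and 3.65% higher. That share is the base for the adjusted edgeR counts only. The share of all tested genes at an unadjusted p under 0.05 was not computed. Control and deletion libraries did not overlap in 5 of the 9 genes, 4 lower and 1 higher in deletion, against 27.5% of all tested genes (13.5% lower and 14.1% higher). The 9 genes were chosen with earlier results of these data known, so neither comparison with all genes is a test of excess. The median log2 fold change of the 9 was -0.08, and that of all tested genes 0.00 (-0.000135).

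**Figure D1:**
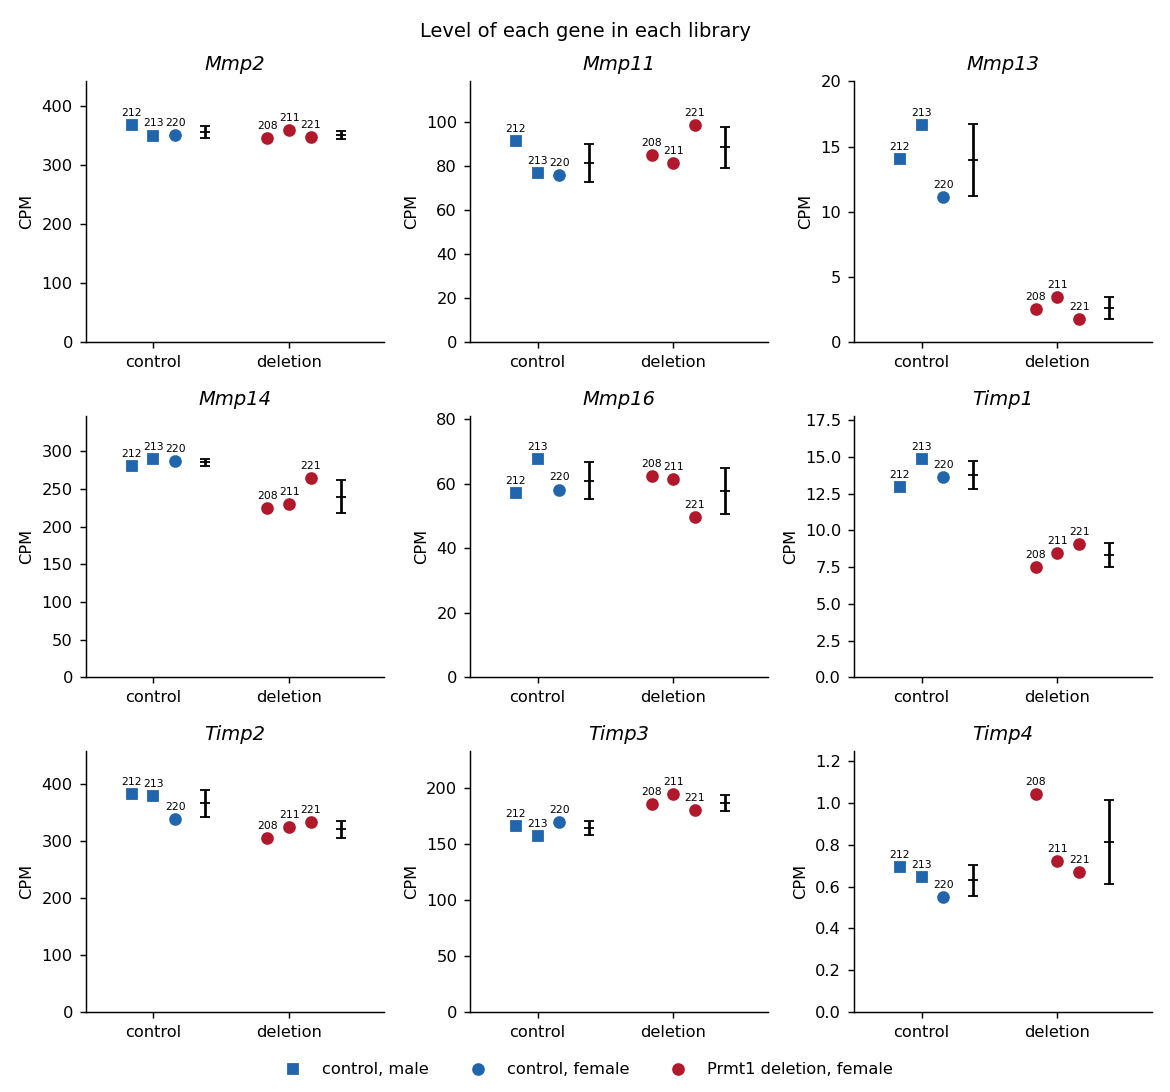
CPM of each gene (vertical axes, from 0) in each library, marked by the number in its name (controls in blue, deletion in red; squares are male and circles female embryos); black bars are mean and SD of 3 libraries. Mmp13, Mmp14, Timp1, Timp2 and Timp3 are separated between groups. The other 4 overlap.

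Among the secreted collagenases, Mmp13 showed the largest change of the 9 genes. MMP13 cleaves fibrillar collagen and is made in bone by osteoblasts and in cartilage by hypertrophic chondrocytes. The gene lies on chromosome 9, 7272514 to 7283331, on the plus strand (GRCm38, GENCODE M21). It measured 14.0, 16.7 and 11.2 CPM in controls cont212, cont213 and cont220, and 2.54, 3.51 and 1.81 CPM in deletion libraries mut208, mut211 and mut221. Every deletion library lay far below the lowest control. This was a 5.33-fold fall (-2.41 ± 0.24 in log2 units, SE), with an edgeR adjusted p of 0.00103.

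The counts behind these values were 508 to 826 in controls and 81 to 160 in deletion libraries. The exact 95% Poisson intervals, which cover counting error only, were 465 to 554 for the lowest control and 136 to 187 for the highest deletion library. The fall was past the threshold with each library left out (log2 fold change -2.68 to -2.21). It also passed with embryo sex as a covariate (-2.09, edgeR adjusted p = 0.0174), a fit in which male controls cont212 and cont213 inform the sex term alone and the deletion libraries are compared with control cont220.

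Mmp2, the gelatinase of mesenchymal cells, was the most abundant of the 9 genes per length and did not pass the test. It is on chromosome 8, 92827291 to 92853420, plus strand. Controls held 369, 350 and 351 CPM and deletion libraries 345, 359 and 348 CPM. The groups overlapped, and the log2 fold change was -0.02 ± 0.05 (SE) with a 95% interval of -0.14 to 0.09 (edgeR adjusted p = 0.838). That interval leaves room for a change of at most 1.10-fold in either direction.

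Mmp11, or stromelysin-3, is activated inside the cell by furin and is typical of mesenchyme next to remodelling epithelium. Its locus is chromosome 10, 75923222 to 75936496, minus strand, where 5.58% of its exon bases overlap exons of Chchd10 on the other strand. It measured 91.0, 76.6 and 75.9 CPM in controls and 84.8, 81.4 and 98.6 CPM in deletion libraries. The highest deletion library (mut221) exceeded all controls and the other deletion libraries lay among them. Its log2 fold change of 0.12 ± 0.09 (SE) did not pass (edgeR adjusted p = 0.485).

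Of the membrane-type enzymes, Mmp14 fell slightly and Mmp16 did not pass. Mmp14 encodes MT1-MMP, a collagenase of the cell surface and the activator of pro-MMP2 (chromosome 14, 54431612 to 54445364, plus strand). Controls held 280, 289 and 287 CPM, a spread of 4.57 CPM (SD), and deletion libraries 225, 229 and 265 CPM. Library mut221 was the closest to the controls but still below each. On average Mmp14 was 1.19-fold lower (-0.25 ± 0.07 in log2 units, SE), with an edgeR adjusted p of 0.0432.

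The Mmp14 call sits near the threshold. It was lost with robust=FALSE (edgeR adjusted p = 0.0573) and without cont212, cont213, cont220, mut208 or mut211 (edgeR adjusted p = 0.08 to 0.177, log2 fold change -0.26 to -0.21) and was stronger without mut221 (-0.33, edgeR adjusted p = 0.00242). With sex as a covariate the size was the same (-0.26) and the call was lost (edgeR adjusted p = 0.258).

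Mmp16, which encodes MT3-MMP, spans chromosome 4, 17852893 to 18119145, on the plus strand. Controls held 57.3, 67.6 and 58.2 CPM and deletion libraries 62.3, 61.6 and 49.7 CPM. The groups overlapped, with library mut221 the lowest of the 6. The Mmp16 estimate of -0.08 ± 0.10 (log2 units, SE) had a 95% interval of -0.29 to 0.14 and an edgeR adjusted p of 0.708.

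Timp1 fell most among the inhibitors. TIMP1 is a soluble inhibitor of most secreted MMPs and a weak one of membrane-type MMPs. The gene is X-linked (chromosome X, 20870166 to 20874735, plus strand) and lies inside Syn1, a synapsin gene on the other strand, without sharing exon bases with it. Controls measured 12.9, 14.8 and 13.6 CPM and deletion libraries 7.49, 8.44 and 9.09 CPM. Both groups were tight and well apart, and the female control cont220 lay between the male controls cont212 and cont213. Timp1 thus fell 1.66-fold (-0.73 ± 0.11 in log2 units, SE), with an edgeR adjusted p of 0.00428.

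Timp1 passed with each library left out (log2 fold change -0.79 to -0.65, edgeR adjusted p = 0.00279 to 0.0414). With sex as a covariate it had nearly the same size, -0.71, and did not pass (edgeR adjusted p = 0.0829). Syn1 measured 1.27, 3.92 and 6.95 CPM in controls cont212, cont213 and cont220. It measured 2.68, 2.02 and 3.01 CPM in deletion libraries mut208, mut211 and mut221. Whether reads of Syn1 entered the Timp1 counts was not tested.

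Timp2 and Timp3 lay on opposite sides of 0 without passing. TIMP2 both inhibits MMPs and serves as the adaptor by which MMP14 binds pro-MMP2 (chromosome 11, 118301069 to 118355740, minus strand). Timp2 measured 382, 378 and 339 CPM in controls and 304, 325 and 333 CPM in deletion libraries. The groups did not overlap, although control cont220 and deletion mut221 were close. The log2 fold change was -0.19 ± 0.06 (SE; edgeR adjusted p = 0.0902).

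TIMP3 binds to the matrix and also inhibits ADAM and ADAMTS proteases. Its gene lies within Syn3 on the other strand (chromosome 10, 86300372 to 86349506, plus strand), and 21.3% of its exon bases overlap Syn3 exons. Timp3 measured 166, 157 and 169 CPM in controls and 185, 194 and 180 CPM in deletion libraries. Every deletion library was above every control, the only such gene of the 9. The log2 fold change was 0.19 ± 0.05 (SE; edgeR adjusted p = 0.0611). Syn3 itself held 1.69 to 2.50 CPM in all libraries.

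Timp2 passed the threshold in 3 of 15 alternatives and Timp3 in 4. Without cont220 and mut221, which leaves male controls against female deletion libraries, the estimate was -0.28 for Timp2 (edgeR adjusted p = 0.00394) and 0.23 for Timp3 (edgeR adjusted p = 0.0145). Timp2 also passed without cont220 (-0.25) and Timp3 without mut221 (0.21), Timp3 without the filter on low counts, and both with the DESeq2 Wald test (adjusted p = 0.034 and 0.0238). With sex as a covariate Timp2 was at -0.08 (edgeR adjusted p = 0.69) and Timp3 at 0.14 (edgeR adjusted p = 0.451).

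Timp4, the inhibitor best known from heart and brain, was barely detected. It lies within Syn2 on the other strand (chromosome 6, 115241892 to 115252205, minus strand). Its counts were 35, 32 and 25 in controls and 52, 33 and 30 in deletion libraries, or 0.55 to 0.70 CPM and 0.67 to 1.04 CPM. The exact 95% Poisson intervals of the lowest and highest count were 16.2 to 36.9 and 38.8 to 68.2. Deletion libraries mut208 (1.04 CPM) and mut211 (0.723 CPM) stood above all controls, and mut221 lay among them. Its log2 fold change of 0.36 did not pass (edgeR adjusted p = 0.588). The 95% interval of -0.37 to 1.10 reaches a 2.14-fold difference, so a difference was neither detected nor excluded. Without a known strand setting, reads of Syn2 (1.55 to 1.76 CPM in controls and 1.90 to 2.92 CPM in deletion libraries), which shares 90 exon bases with Timp4, cannot be separated from it.

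**Figure D2:**
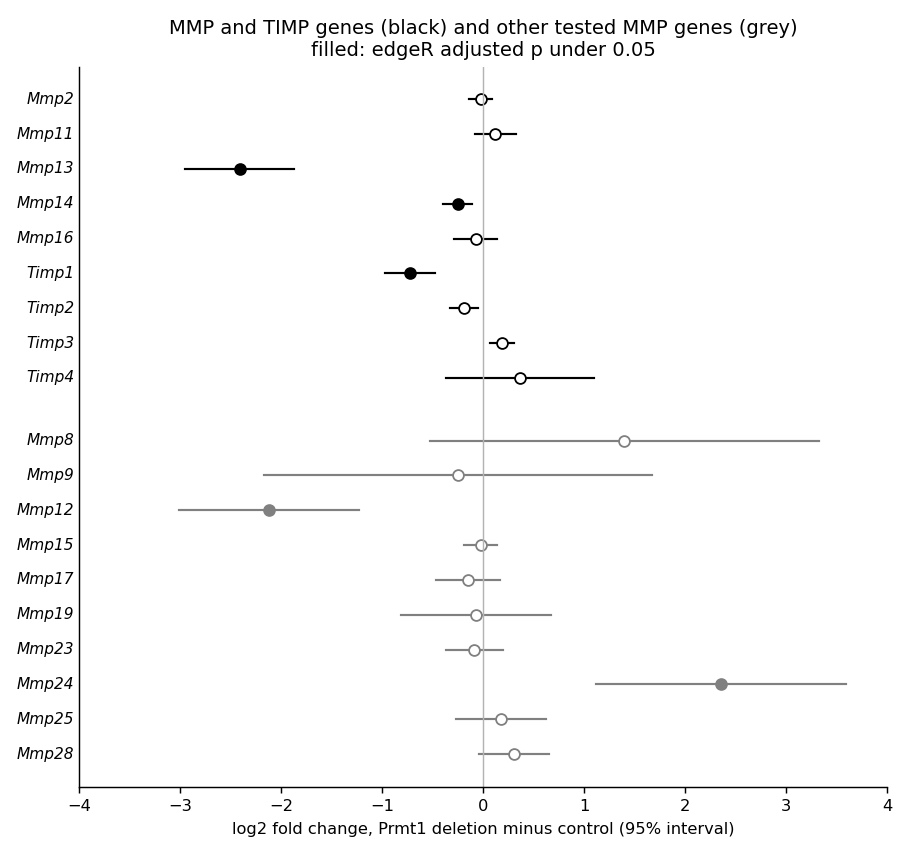
Log2 fold change of each gene with its 95% interval (horizontal axis, deletion minus control), black for the 9 genes described and grey for the 10 other MMP genes tested, filled where edgeR adjusted p was under 0.05. Mmp13 at -2.41 and Timp1 at -0.73 lie well below 0, and the intervals of Mmp2, Mmp11 and Mmp16 are narrow and include 0.

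On a scale corrected for length, CPM per kb of merged exons, the order from high to low was Mmp2, Timp2, Mmp14, Mmp11, Timp3, Timp1, Mmp16, Mmp13 and Timp4. Mmp2 held 106 ± 3.11 in controls and 104 ± 2.12 in deletion libraries, and Timp2 94.1 ± 6.05 and 82.3 ± 3.73. Mmp14 followed at 47.9 ± 0.766 and 40.2 ± 3.65. By merged exons, Mmp2 and Timp2 together made the bulk of the transcripts per length. They held 31.8% to 35.5% and 27.1% to 29.7% of the sum of the 9 genes in the 6 libraries. Shares were computed with this length only. With the longest annotated transcript, Mmp14 was at 88.2 ± 1.41 in controls and 74.1 ± 6.72 in deletion libraries. Timp2 was then at 98.8 ± 6.36 and 86.4 ± 3.92.

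Mmp13 was a minor component in both groups, at 5.22 ± 1.03 CPM per kb in controls and 0.98 ± 0.318 in deletion libraries, or 1.33% to 1.91% and 0.22% to 0.438% of the sum. Each gene exceeded the next in the order in all 6 libraries. The ranges over the 6 libraries overlapped for 1 pair of neighbours, Mmp16 and Mmp13. With the longest annotated transcript as the length, Timp3 and Mmp11 changed places and did not differ beyond their spread (Timp3 higher in 3 of 6 libraries). The ranges of Timp2 and Mmp14 then also overlapped. Timp1 was then above Mmp16 in 4 of 6 libraries and below it in mut208 and mut211, and the means of the deletion group were in the opposite order (9.44 for Timp1 and 11.5 for Mmp16).

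**Figure D3:**
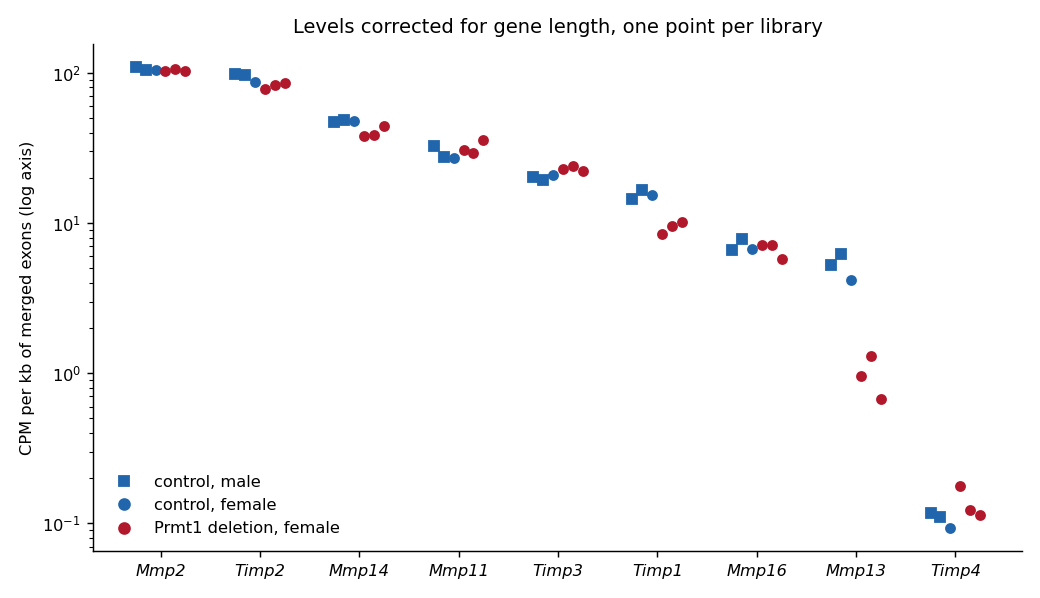
Level of each gene per length (vertical log axis, CPM per kb of merged exons) in each of the 6 libraries, ordered by mean. Mmp2 and Timp2 lie near 100 and Timp4 near 0.1, and the gap between blue and red points is widest for Mmp13.

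The relation between inhibitor and enzyme was described by ratios of these length-corrected levels, with no test. The Timp2 to Mmp2 ratio was 0.896, 0.935 and 0.836 in controls and 0.763, 0.783 and 0.827 in deletion libraries. The groups did not overlap, but control cont220 and deletion mut221 nearly met. Mmp14 to Mmp2 was 0.43 to 0.467 in controls and 0.362 to 0.431 in deletion libraries, which overlapped. Timp2 to Mmp14, the pair of the surface complex, overlapped widely (1.81 to 2.08 and 1.92 to 2.16). The size of both ratios with Mmp14 depended on the length used. With the longest transcript, Timp2 to Mmp14 was 1.03 to 1.19 in controls and 1.10 to 1.24 in deletion libraries. Mmp14 to Mmp2 was then 0.723 to 0.785 and 0.608 to 0.724, and the groups still overlapped in both.

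Among the inhibitors, Timp1 to Timp2 was 0.166 ± 0.0148 in controls and 0.114 ± 0.00596 in deletion libraries, and Timp3 to Timp2 0.215 ± 0.0212 and 0.279 ± 0.0172, both without overlap. The 4 TIMPs together came to 0.647 to 0.686 of the 5 MMPs in controls and 0.612 to 0.639 in deletion libraries. That last separation depended on the length used, since the groups overlapped with the longest transcript (0.568 to 0.593 and 0.556 to 0.584).

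The rest of the MMP family was mostly low. Of 18 other MMP genes, 10 were tested, 1 rose and 1 fell, with a median log2 fold change of -0.05. Mmp12, the macrophage metalloelastase, fell from 2.42 ± 0.875 to 0.556 ± 0.29 CPM (log2 fold change -2.12, edgeR adjusted p = 0.0121), with values of 2.66, 3.15 and 1.45 CPM in controls and 0.481, 0.876 and 0.313 CPM in deletion libraries. Leaving out cont213 or mut208 (edgeR adjusted p = 0.0719 and 0.0703), or adding the sex covariate (-1.38, edgeR adjusted p = 0.22), ended that call. Mmp24, a membrane-type MMP of neurons, rose from 0.169 ± 0.126 to 0.861 ± 0.399 CPM (edgeR adjusted p = 0.0301). It rests on 3.41 to 13.6 estimated counts in controls and 28.1 to 66 in deletion libraries, and 13.6% of its exon bases overlap BC029722 on the other strand. The Mmp24 call was lost when cont212, cont213, mut208 or mut211 was left out (edgeR adjusted p = 0.0533 to 0.149), and in the sex-adjusted fit (1.48, edgeR adjusted p = 0.377).

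Mmp9, the gelatinase of osteoclasts, varied within groups rather than between them. It held 26.9, 45.1 and 63.4 CPM in controls and 17.5, 24.9 and 71.7 CPM in deletion libraries, and its highest values were in libraries cont220 and mut221. Its log2 fold change was -0.25 with a 95% interval of -2.17 to 1.67 (edgeR adjusted p = 0.889). Mmp9 is named here for that pattern, after its values were seen. Mmp1a, Mmp1b and Mmp21 were at 0 in every library, and Mmp3, Mmp7, Mmp10, Mmp20 and Mmp27 had at most 30 counts.

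Of 24 activators and regulators of MMPs, 4 fell and 1 rose, with a median log2 fold change of -0.09. Pcsk6, a proprotein convertase of the furin family, fell 2.17-fold, from 75.0 ± 12.7 to 34.6 ± 3.08 CPM (edgeR adjusted p = 0.00314). Plaur, the urokinase receptor on which plasmin activity is focused, fell 1.95-fold, from 5.43 ± 0.358 to 2.79 ± 0.74 CPM. Serpine2, a protease inhibitor of the plasminogen system, fell by 0.38 on the log2 scale. Plat, tissue plasminogen activator, rose 1.58-fold, with 15.6 ± 2.15 and 24.6 ± 3.06 CPM in control and deletion. Without cont213 the calls of Plaur, Plat and Serpine2 were lost (edgeR adjusted p = 0.0523 to 0.0802), as was that of Plaur without mut208 (0.0708). After adjustment for sex Pcsk6, Plaur, Serpine2 and Plat did not pass (edgeR adjusted p = 0.0577 for Pcsk6 and 0.167 to 0.193 for the others). Furin, which activates MMP11, MMP14 and MMP16, was at 129 ± 2.44 and 116 ± 6.89 CPM and did not pass (edgeR adjusted p = 0.13), nor did Reck, the membrane-anchored MMP inhibitor (91.0 ± 3.61 and 84.6 ± 2.76 CPM, edgeR adjusted p = 0.263).

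Among 25 matrix substrates, 8 fell and 1 rose, with a median log2 fold change of -0.17. Col5a2, a fibril-forming collagen chain, fell 1.25-fold, and the small proteoglycan genes Bgn and Fmod fell 1.25-fold and 1.38-fold. These 3 calls were lost without cont213 (edgeR adjusted p = 0.0502 for Col5a2, 0.0819 for Bgn and 0.0506 for Fmod), and that of Bgn also without cont212, mut208 or mut211 (0.051 to 0.0847). Col2a1, the cartilage collagen and a preferred substrate of MMP13, measured 220.7 ± 46.4 CPM in controls and rose to 419 ± 19.0 CPM (edgeR adjusted p = 0.0141). Col2a1 did not pass without cont213, mut208 or mut221 (edgeR adjusted p = 0.0634 to 0.0769). It also did not pass without cont220 and mut221 together (0.0629) or with no filter on low counts (0.0663). With sex as a covariate its log2 fold change was 1.21, against 0.93 without. The summed level of the list was 22568 to 25274 CPM in controls and 20645 to 21924 CPM in deletion libraries. The number that fell was 4 without cont212, 2 without mut208 or mut211, 0 without cont213 and 0 with sex as a covariate.

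Mmp13 lies downstream of RUNX2, SP7, AP-1 factors and parathyroid hormone signalling in bone cells. Of 15 such regulators, 3 fell and 0 rose by edgeR, with a median log2 fold change of -0.49. At an unadjusted p under 0.05, 6 were lower and 1 was higher, with the share of all tested genes not computed. DESeq2 called 5 lower and voom 3, and each called 0 higher. Pth1r, the receptor for parathyroid hormone and its related peptide, measured 127 ± 2.15 and 86.7 ± 7.44 CPM, a fall of -0.55 on the log2 scale (edgeR adjusted p = 0.00103), and passed with each library left out and with sex as a covariate (edgeR adjusted p = 0.0378). The AP-1 genes Fosl2 and Junb fell 1.40-fold and 1.68-fold, Junb not passing without cont213, mut208 or mut211 (edgeR adjusted p = 0.0557 to 0.0758). In the sex-adjusted fit neither passed (edgeR adjusted p = 0.0929 for Fosl2 and 0.154 for Junb). Runx2 was at 175 ± 23.1 and 132 ± 31.5 CPM and did not pass (edgeR adjusted p = 0.333), and Fos and Jun did not pass either (edgeR adjusted p = 0.244 and 0.639). With the DESeq2 Wald test or with robust=FALSE, 5 of these regulators were lower, and with sex as a covariate 1.

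Of 13 osteoblast and hypertrophic markers, 10 were tested, and all 10 had log2 fold changes below 0, with a median of -1.81. All 10 had an unadjusted p under 0.05, a count for which the share of all tested genes was not computed. By edgeR adjusted p 2 fell. The summed level of the list was 4476 to 6041 CPM in controls and 2747 to 3540 CPM in deletion libraries. Most of it in every library was Col1a1 (4078 ± 688 CPM in controls and 2824 ± 331 CPM in the deletion group). Col1a1 is also among the matrix substrates, so the sum mainly follows that gene and not the other markers. Ifitm5 and Mepe, both of mineralizing osteoblasts, were the 2 that fell (3.94-fold and 3.50-fold). Mepe did not pass without cont212, cont213 or mut208 (edgeR adjusted p = 0.0744 to 0.0968), nor Ifitm5 without cont212, cont213, cont220 or mut221 (0.081 to 0.116). Ibsp, bone sialoprotein, was at 486, 735 and 561 CPM in controls and 50.7, 165 and 99.0 CPM in deletion libraries, which did not pass (-2.51 on the log2 scale, edgeR adjusted p = 0.0768). None of the 13 was at 0 in all libraries, but Bglap, Bglap2 and Col10a1, the marker of hypertrophic cartilage, were at most at 0.263 CPM and were not tested. The DESeq2 Wald test called 10 of these markers lower, robust=FALSE 9 and the fit with sex as a covariate 0.

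In bulk tissue, fewer cells of a type and less RNA per cell cannot be told apart, and the part of these markers in the fall of Mmp13 was not tested. Other cell types gave mixed values. For the counts at an unadjusted p given below, the share of all tested genes was not computed. Of 13 measured chondrocyte markers 7 rose, with sums of 744 to 1013 CPM in controls and 1187 to 1335 CPM in deletion libraries. Of 12 epithelial markers 7 fell (1522 to 1720 and 1036 to 1304 CPM). Of 11 measured macrophage markers 1 fell, Mmp12 itself, with overlapping sums (126 to 178 and 120 to 137 CPM). Of these, 10 were below 0 and 1 above (3 lower at an unadjusted p under 0.05, 2 by DESeq2, 1 by voom). Of 10 osteoclast markers 1 fell, Ctsk (139 to 176 and 109 to 164 CPM). There 7 were below 0 and 3 above (3 lower and 1 higher at an unadjusted p under 0.05, 1 lower by DESeq2 and 1 by voom). Of 8 endothelial markers 0 passed by edgeR (4 at an unadjusted p under 0.05, 1 by DESeq2, 0 by voom). All 15 skeletal muscle markers had log2 fold changes above 0, with sums of 601 to 648 and 1020 to 1718 CPM. By edgeR 6 of them rose (13 at an unadjusted p under 0.05, 11 by DESeq2, 6 by voom). Among 13 neuronal and glial markers 11 were above 0 and 2 below (59.4 to 84.9 and 81.1 to 127 CPM). There 2 rose by edgeR (8 at an unadjusted p under 0.05, 6 by DESeq2, 2 by voom). Among the palatal mesenchyme markers Barx1 rose 1.36-fold (edgeR adjusted p = 0.00275). Of 9 erythroid markers 0 passed by edgeR, at an unadjusted p under 0.05 or by DESeq2 or voom. The part of these lists in the values of Mmp14, Timp1, Timp2 and Timp3 was not tested.

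**Figure D4:**
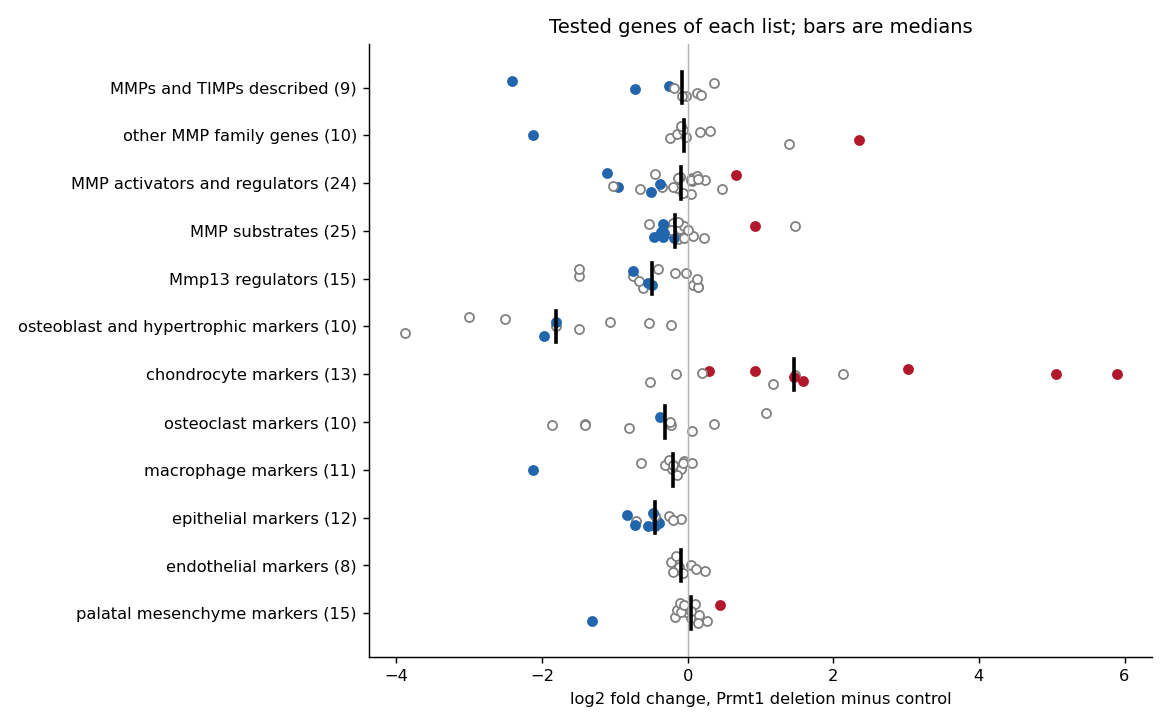
Log2 fold change (horizontal axis, deletion minus control) of each tested gene in 12 lists, with the number tested in brackets, blue where it fell, red where it rose and open where it did not pass; black bars are medians. Osteoblast markers lie to the left around a median of -1.81 and chondrocyte markers to the right around 1.46, while the 9 MMP and TIMP genes lie near 0 apart from Mmp13 and Timp1.

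Genes whose log2 CPM was most like that of each gene that fell were found by Pearson correlation over the 6 libraries among 12731 tested genes. With 6 points and so many genes, values near 1 are common, and the measure serves only as a description. For Mmp13 they were Gadd45b, a stress-response gene, Gjb2, which encodes connexin 26, and Zdhhc24 (r = 0.996 to 0.997). Gjb2 measured 34.5, 38.3 and 30.8 CPM in controls and 16.1, 16.5 and 13.2 CPM in deletion libraries. For Mmp14 they were Exosc4, Wars and St14, the last encoding matriptase, an epithelial membrane protease (r = 0.989 to 0.998). For Timp1 they were B3gntl1, Gart and Col6a2, a chain of collagen VI (r = 0.996 to 0.998).

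**Figure D5:**
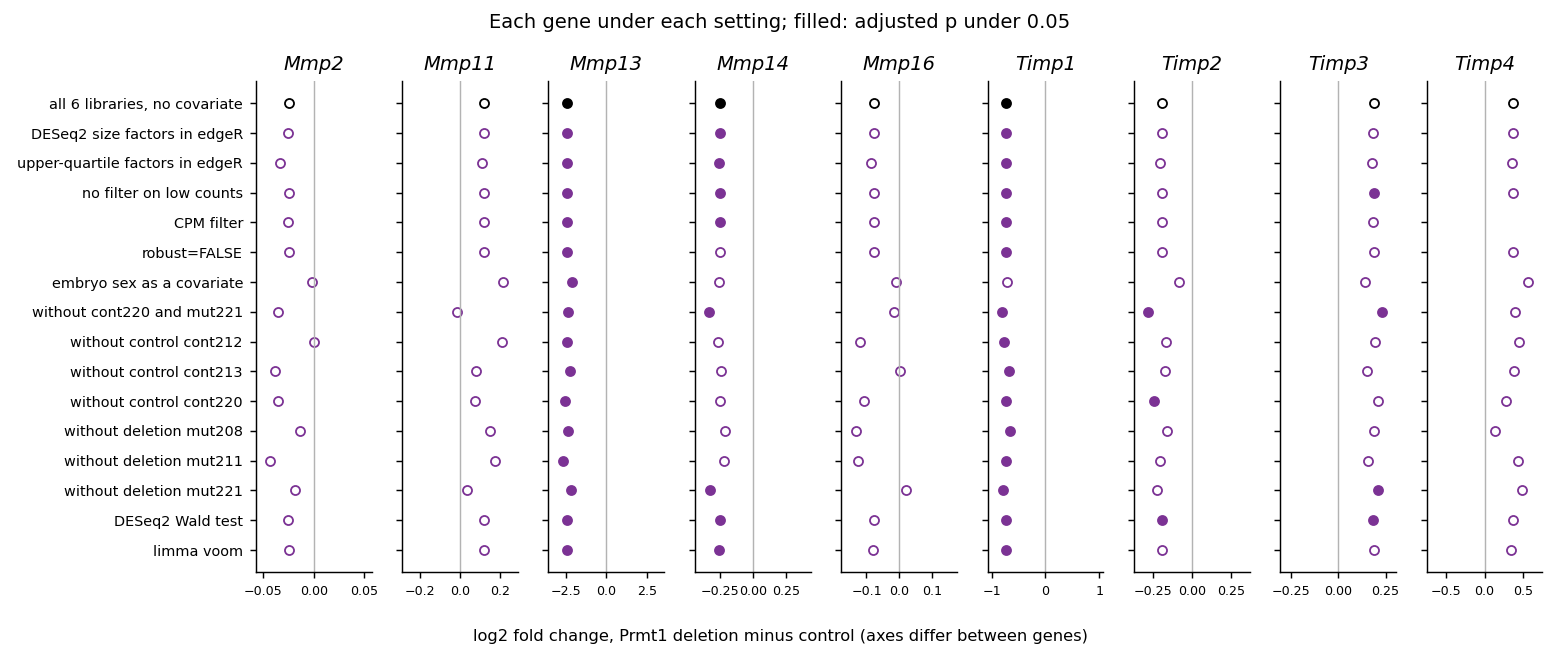
Log2 fold change of each gene (horizontal axes, which differ between genes) under each setting (vertical), black for all 6 libraries and purple for the alternatives, filled where adjusted p was under 0.05. Mmp13 is filled in every setting, Timp1 in all but the sex covariate, and Mmp2, Mmp11, Mmp16 and Timp4 in none.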

How the data were processed

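Poly(A) RNA-seq of 6 libraries was used. The authors deposited a single table of estimated counts (expected counts) per gene symbol, not normalized; 23.0% to 23.8% of values per library are not whole numbers. Tools named in the submitters' processing notes are CASAVA 1.8.2, STAR 2.4.1d and Partek, with the build mm10. The counter, annotation and strand setting: not given in the sources used here. Column names give each library's group but not which sample it is.

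Counts were rounded and kept by filterByExpr (minimum count 10, minimum total 15), with TMM scaling. Testing used the quasi-likelihood F test of edgeR 4.0.16 (R 4.3.3; glmQLFit, robust=TRUE), no covariates, Benjamini-Hochberg adjustment over 19284 genes and a threshold of 0.05. Each SE is |log2 fold change| over the square root of F, with 95% intervals. The test was tried on simulated counts first. Coordinates and lengths are from GENCODE M21 (GRCm38, the assembly of mm10). Alternatives used DESeq2 1.42.0, limma 3.58.1, other scalings and filters, embryo sex and left-out libraries. Libraries within a group differed by more than sampling noise (chi-square over its degrees of freedom 7.79 to 38.0).

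The 9 genes and all gene lists were chosen with earlier results of these data known. Genes were named by rule: the 9 genes, Prmt1, the TIMP host genes, and for each list used at most 4 genes past the threshold, by p, or 2 if none passed. For each of the 9 that passed, the 3 genes of mean log2 CPM of 1 or more most correlated with it were added. Furin, Reck, Runx2, Fos, Jun, Ibsp, Col1a1, Mmp9, the genes not tested and BC029722 are named outside it, after their values were seen. A result for 1 list gene is not reported here.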

Additional observations from a re-analysis of the deposited data

How the results depend on the processing

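No paired analysis was possible because the columns carry none of the replicate numbers of the labels. Mmp13 was past the threshold under all 15 alternatives (log2 fold change -2.68 to -2.09, adjusted p 9.77e-26 to 0.0174) and Timp1 under 14, all but the sex covariate (-0.71). Mmp14 was past it under 8, and was lost there (-0.26) and with robust=FALSE (-0.25), and ranged from -0.33 to -0.21 with 1 library left out. Timp2 passed with the DESeq2 Wald test (-0.19) and without cont220 and mut221 (-0.28), and ranged from -0.25 to -0.16 with 1 library left out. Timp3 passed with no filter on low counts (0.19), with the DESeq2 Wald test (0.19) and without cont220 and mut221 (0.23), and ranged from 0.15 to 0.21 with 1 library left out. Values near 0 changed sign: Mmp11 without cont220 and mut221 (-0.017), Mmp2 with 1 library left out (-0.043 to 0.00042) and Mmp16 (-0.13 to 0.022). Timp4 gave no value under the CPM filter (at least 1 CPM in 3 libraries).

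The number of the 9 genes higher was 0 and became 1 with no filter on low counts, with the DESeq2 Wald test and without cont220 and mut221, and was 0 to 1 with 1 library left out. The number lower was 3 and became 1 with the sex covariate, and was 2 to 3 with 1 library left out. The number lower was 2 with robust=FALSE, and 4 both with the DESeq2 Wald test and without cont220 and mut221. In the other lists together, 18 genes were higher and 27 lower. These numbers became 8 and 3 with the sex covariate, 32 and 42 both with the DESeq2 Wald test and without cont220 and mut221, and ranged over 10 to 27 and 8 to 30 with 1 library left out (lowest without cont213). Over all tested genes, 703 higher and 649 lower became 65 and 64 with the sex covariate, 1088 and 1037 with the DESeq2 Wald test, 1378 and 1391 without cont220 and mut221, and 198 to 1047 and 158 to 825 with 1 library left out (lowest without cont213). In the sex-adjusted fit the deletion libraries are compared with cont220 alone, and without cont220 and mut221 the remaining groups also differ in sex. Why these numbers moved was not tested.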
